A study of Mus musculus with 2 samples.

Results

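Cells answer DNA breaks and stalled replication with a relay of proteins. The kinases ATM and ATR sense the damage, CHEK1 and CHEK2 pass the signal on, BRCA1 and BRCA2 serve repair by homologous recombination, the histone variant H2AX marks the chromatin around a break, and p53 turns on genes for arrest or death under the control of its inhibitors MDM2 and MDM4. The open chromatin at the genes of these proteins was described here in the mouse organ of Corti with and without the Polycomb protein Bmi1. The set held 10 genes (*Atm*, *Atr*, *Chek1*, *Chek2*, *H2afx*, *Brca1*, *Brca2*, *Trp53*, *Mdm2* and *Mdm4*), chosen by name for their roles in the checkpoint and the p53 pathway, out of 21938 protein-coding genes of the GENCODE vM21 annotation. All 10 were found in the annotation.

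The organ of Corti is the sensory epithelium of the cochlea, in which hair cells sit on supporting cells. Sensory hair cells of mammals leave the cell cycle before birth, and supporting cells lose most of their capacity to divide soon after it, so the genes that govern cell cycle arrest are of interest in this tissue. In other tissues loss of Bmi1 is known to act in part through p53 and Chek2.

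ATAC-seq, in which the transposase Tn5 cuts accessible DNA, was done on the organ of Corti of neonatal mice at postnatal day 2. The WT group consisted of littermates of the *Bmi1*-/- group, which was homozygous for the germline targeted allele *Bmi1* tm1Brn after backcrossing to C57BL/6J. Because this allele removes Bmi1 from every cell of the mouse, effects within the epithelium and effects from outside it cannot be told apart. Each genotype was represented by 1 library of pooled mice, so no difference between the lists could be set against the spread between animals, and no test was made.

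All peak names in the list labelled as WT carried the prefix bko, and all those in the list labelled as *Bmi1* KO carried the prefix bwt. The labels and the names inside the lists thus contradict each other, so the lists are called WT-labelled and KO-labelled, and every direction given here is one between labels. At *Bmi1* itself (chromosome 2, 18677018 to 18686629, plus strand) the WT-labelled list held 1 peak in the gene and the KO-labelled list held 3. The part of *Bmi1* that the allele removes is not given in the sources used here, so these peaks did not settle which list is which.

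Of the deposited peaks, 77596 in the WT-labelled list and 100431 in the KO-labelled list lay on chromosomes 1 to 19, X and Y and were used. The commonest local background was 6.32 reads in the WT-labelled list and 8.04 in the KO-labelled list, a ratio of 1.27. The KO-labelled list therefore came from the library with the higher background, and a peak needed fewer reads to enter the WT-labelled list. At these backgrounds the weakest listed peaks had a pileup of 13 reads in the WT-labelled list and 15 in the KO-labelled list. A site below such a pileup is missing from a list, so a missing peak means that accessibility was not detectable at this depth.

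Marker genes of the tissue were looked at by the same promoter rule, a peak centre within 3 kb of an annotated transcription start site (TSS). Over all protein-coding genes 59.1% had such a peak in the WT-labelled list and 68.2% in the KO-labelled list. Of 8 hair cell markers 7 had a promoter peak in the WT-labelled list and 6 in the KO-labelled list, where *Lhx3* and *Pvalb* had none. *Otof* had none in the WT-labelled list. Of 8 supporting cell markers 8 and 7 had one, with *Hes5* missing from the KO-labelled list. For markers of other cells the counts were 4 and 6 of 8 for neurons, 4 and 5 of 8 for glia, 5 and 5 of 8 for mesenchyme, 7 and 6 of 8 for endothelium, and 3 and 1 of 8 for blood and macrophages. *Ptprc*, which marks all white blood cells, had none in either list. The median percentile of the markers' strongest promoter peaks in the 2 lists was 56.8 and 50.1 for hair cells, 74.0 and 82.7 for supporting cells, 56.8 and 80.0 for neurons and 65.7 and 89.4 for glia. It was 67.8 and 81.1 for mesenchyme, 56.8 and 83.6 for endothelium and 40.1 and 15.8 for blood and macrophages. Over all genes it was 76.8 and 87.3, so each of these medians lay below that of all genes except the one for glia in the KO-labelled list. Single markers ranked high in both lists, among them *Lgr5* (99.9 and 99.9) and *Sox2* (94.8 and 97.1) of supporting cells. So did *Myo6* (98.1 and 99.1) of hair cells and *Egr2* (95.3 and 90.3) of glia. Other markers of the same cells ranked lower, among them *Prox1* (70.8 and 63.7) of supporting cells and *Erbb3* (50.4 and 51.4) of glia. Of hair cells *Atoh1* (56.8 and 44.0) and *Gfi1* (31.5 and 34.7) did so. The part of other cell types in the peaks described below was not tested.

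Most of the checkpoint and p53 genes had a promoter peak in both lists. The rule counts a peak near any annotated TSS, and members had from 1 TSS (*H2afx*) to 13 (*Mdm4*). A gene with more TSSs can thus have a wider promoter window. The first TSS was covered in both lists only at *Atm*, *Atr*, *Chek2* and *H2afx*, and the same share over all genes was not taken. A promoter peak was found for 9 of the 10 genes in the WT-labelled list (90.0%, exact binomial 95% interval 55.5% to 99.7%), against 59.1% of all protein-coding genes, and for the same 9 in the KO-labelled list, against 68.2%. The gene without one was *Trp53*, and 25.7% of all genes had a promoter peak in neither list. At 7 of the 10 genes (70.0%, 34.8% to 93.3%) promoter peaks of the lists overlapped by at least 1 bp, against 40.4% of all genes. No member had a promoter peak in 1 list only, while 15.2% of all genes had one only in the KO-labelled list and 6.1% only in the WT-labelled list. *Mdm2* and *Brca2* had promoter peaks in both lists, but at different places. The intervals of shares, pileups and ratios cover counting error only.

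The strength of a peak was compared by its rank, as the percentile of its −log10 p within its own list, because fold enrichments of libraries with different backgrounds are not on 1 scale. At 8 of the 9 genes with a promoter peak the strongest one had its higher rank in the KO-labelled list (88.9%, 51.8% to 99.7%), and *Mdm4* was the exception. Of the 11618 protein-coding genes with a promoter peak in both lists the same held for 67.5%, and it held for 68.6% of the 16298 with one in either list when genes with a peak only in the KO-labelled list were counted as higher. A higher rank in that list was thus the common case. With equally many peaks from both lists it held for 6 of 9 members and for 62.4% of the genes listed in both. Over the 9 members the median percentile was 84.9 in the WT-labelled list and 96.6 in the KO-labelled list, and over all genes it was 76.8 and 87.3. The members' medians thus lay above those of all genes in both lists.

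The number of reads at each summit (the pileup) was solved from the deposited values and divided by the local background. At the 7 members whose strongest peaks overlapped, the background-scaled pileup of the KO-labelled over that of the WT-labelled list had a median ratio of 1.07, with a range of 0.888 to 1.42. Over the 6427 protein-coding genes with such peaks the median was 1.03, with the middle 90% between 0.749 and 1.45. No member reached a ratio of 1.5 in either direction, against 3.73% of those genes above and 1.17% below. With the commonest background of each library in place of the local one, *Brca1* did, at 1.69, with summits that lay in its neighbour *Nbr1*. Each member's interval included 1, which was the rule: of the 6427 genes 43 had an interval above 1 (0.669%) and 4 had one below (0.0622%). At this depth few differences in scaled pileup were detectable at any gene, so the intervals do not set the members apart.

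**Figure D1:**
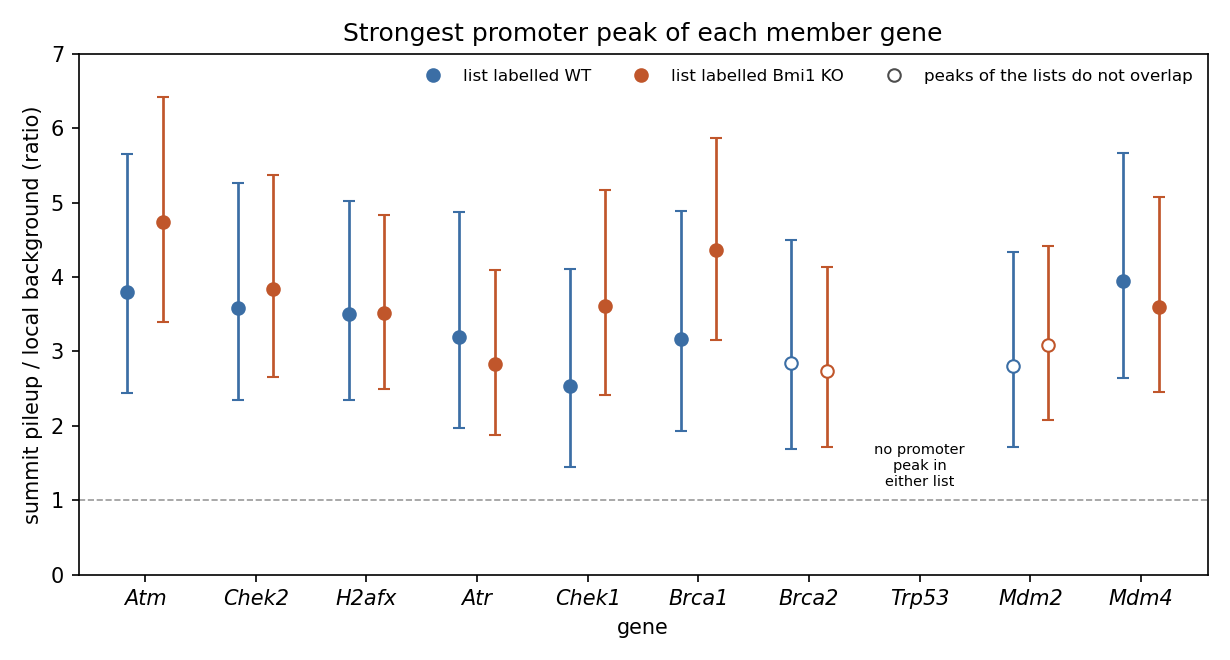
Summit pileup divided by local background (ratio, y axis) at the strongest promoter peak of each gene (x axis) in the WT-labelled list (blue) and the KO-labelled list (orange), 1 library each; bars are exact Poisson 95% intervals of the pileup divided by the background, and open circles are genes whose peaks do not overlap between lists. The bars of the lists overlap at all 9 genes with a promoter peak, and *Trp53* has none.

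Among the genes of damage sensing, *Atm* (chromosome 9, 53439149 to 53536740, minus strand) had the highest-ranked promoter peak of all members in the KO-labelled list. *Atm* encodes the kinase that responds to double-strand breaks. Its peak had a pileup of 24 reads (exact Poisson interval 15.4 to 35.7) over a background of 6.32 in the WT-labelled list and 41 reads (29.4 to 55.6) over 8.66 in the KO-labelled list, at percentiles 96.5 and 99.2. The scaled ratio was 1.25 (0.736 to 2.16). Peaks spanned 53536648 to 53537463 and 53536463 to 53537575, and in both lists they also covered the TSS of *Npat*, 307 bp away on the opposite strand, so the accessibility of the 2 genes cannot be told apart. *Npat* encodes a regulator of histone gene transcription in S phase. The summits lay 301 bp apart, at 53537223 inside *Npat* (WT-labelled) and at 53536922 between the 2 starts (KO-labelled). The scaled ratio at *Atm* thus compares different positions. The KO-labelled list alone had a further intronic peak in *Atm*, of 23 reads.

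*Atr* (chromosome 9, 95857597 to 95951781, plus strand) encodes the kinase that responds to stalled forks and single-stranded DNA. Its promoter peak had 21 reads (13.0 to 32.1) over 6.58 in the WT-labelled list and 28 reads (18.6 to 40.5) over 9.88 in the KO-labelled list, at percentiles 84.9 and 87.0. The scaled ratio of 0.888 (0.486 to 1.64) was the lowest of the 7, and both its direction and that of the percentile changed with the processing. *Atr* was also the only member with a further, separate pair of overlapping peaks in its promoter window. The centres of that pair lay 2559 bp and 2769 bp before the first TSS, at percentiles 47.5 and 35.6. The TSS of the antisense RNA 1700065D16Rik, 80 bp from an *Atr* TSS, was covered by the promoter peak of both lists.

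The histone gene *H2afx* (chromosome 9, 44334694 to 44336077, plus strand) encodes H2AX, which ATM and ATR phosphorylate around a break. The WT-labelled list had a single peak of 29 reads (19.4 to 41.6) over 8.28 across its TSS, from 44334498 to 44335190. The KO-labelled list had a pair of peaks in that stretch. The weaker, from 44334326 to 44334880, covered the TSS with 29 reads over 10.6 at percentile 86.3, and the stronger, from 44334997 to 44335494, lay within the gene with 38 reads (26.9 to 52.2) over 10.8. The strongest peaks stood at percentiles 97.3 and 97.6, with a scaled ratio of 1.01 (0.606 to 1.70), but this sets the WT-labelled peak at the TSS against the KO-labelled peak within the gene. Between the peaks that cover the TSS the ratio was 0.778 (0.449 to 1.35), and the rank was then higher in the WT-labelled list. Peaks near the TSS of the upstream gene *Dpagt1* fell in the *H2afx* region too and overlapped between the lists, at percentiles 51.3 and 81.0. A further KO-labelled peak at a *Dpagt1* TSS, from 44327981 to 44328195, overlapped no WT-labelled peak and stood at percentile 64.4.

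The transducer kinase genes differed in how firmly their promoters were listed. *Chek1* (chromosome 9, 36708482 to 36727065, minus strand) encodes the kinase that acts mainly downstream of ATR. Its promoter peak had the lowest rank among the strongest promoter peaks of the members in the WT-labelled list, with 16 reads (9.15 to 26.0) over 6.32, a −log10 q of 0.904 and a percentile of 23.3. In the KO-labelled list the peak had 29 reads (19.4 to 41.6) over 8.04, a −log10 q of 4.98 and a percentile of 95.6. This rise of 72.4 percentile points was the largest among the members with the promoter window of 3 kb. With 1 kb to each side the difference was larger at *Mdm2*, 92.9, where the WT-labelled list then had no promoter peak. The scaled ratio at *Chek1* was 1.42 with an interval of 0.749 to 2.81. The *Chek1* peak was 210 bp wide and covered 1 *Chek1* TSS in the WT-labelled list, and 898 bp wide and covering 6 in the KO-labelled list.

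*Chek2* (chromosome 5, 110839979 to 110874145, plus strand) encodes the kinase that acts mainly downstream of ATM and phosphorylates p53. Its promoter peak was strong in both lists, with 26 reads (17.0 to 38.1) over 7.24 (WT-labelled) and 34 reads (23.5 to 47.5) over 8.84 (KO-labelled). The percentiles of 96.8 and 97.6 lay 0.836 points apart and the scaled ratio was 1.07 (0.624 to 1.86). The widths were 657 bp and 789 bp, and in both lists the peak covered the TSS of *Hscb*, an iron-sulfur cluster co-chaperone gene 202 bp away on the opposite strand. Intronic peaks of *Chek2* did not overlap between the lists: the WT-labelled list had 2, of 18 and 21 reads, and the KO-labelled list had 1, of 19 reads.

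Of the repair genes, *Brca1* (chromosome 11, 101488764 to 101551955, minus strand) encodes a ubiquitin ligase subunit that directs breaks to homologous recombination. Its WT-labelled promoter peak ran from 101552526 to 101553228 and stopped 571 bp short of the first *Brca1* TSS. That peak covered other start sites, those of *Nbr1*, an autophagy receptor gene whose nearest TSS is 194 bp from that of *Brca1* on the opposite strand. The KO-labelled peak ran from 101551805 to 101553199, and this interval of 1395 bp covered 2 *Brca1* TSSs. It covered start sites of *Nbr1* as well, so these peaks do not tell the accessibility of the 2 genes apart. The summits, at 101552827 (WT-labelled) and 101552775 (KO-labelled), lay inside *Nbr1*, past its TSS at 101552149. The pileups and ratios given next are thus those of sites in *Nbr1*, not of the *Brca1* start. The pileup was 20 reads (12.2 to 30.9) over 6.32 (WT-labelled) and 43 reads (31.1 to 57.9) over 9.86 (KO-labelled), at percentiles 81.0 and 99.1. The scaled ratio of 1.38 (0.794 to 2.47) did not exclude equal accessibility. It was 1.69 when the commonest background of each library was used in place of the local one.

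*Brca2* (chromosome 5, 150522630 to 150570329, plus strand) encodes a mediator of homologous recombination that acts on broken ends. No peak of either list lay within 3 kb of its first TSS. Its promoter calls rested on start sites of minor transcripts far inside the gene. The WT-labelled peak, from 150569280 to 150569636, was centred 46828 bp downstream of the first TSS, and it had 18 reads (10.7 to 28.4) over 6.32 at percentile 56.8. The KO-labelled peak, from 150566168 to 150566397, was centred 43653 bp downstream, and it had 22 reads (13.8 to 33.3) over 8.04 at percentile 69.3. The gap of 12.5 points shrank to 3.46 with equally many peaks from both lists. These peaks did not overlap, and with curated RefSeq transcripts *Brca2* had no promoter peak in either list.

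*Trp53* (chromosome 11, 69580359 to 69591873, plus strand), the gene of p53, had no promoter peak in either list. Only the WT-labelled list had a peak in its region, from 69577149 to 69577410. This peak was centred 3079 bp upstream of the first TSS, just outside the promoter window, and was weak, with 19 reads (11.4 to 29.7) over 7.84, a −log10 q of 1.07 and a percentile of 30.7. It lay inside *Wrap53*, the gene on the opposite strand whose TSS is 104 bp from that of *Trp53* and whose product guides telomerase RNA to Cajal bodies. The KO-labelled list had no peak in the *Trp53* region, which made *Trp53* the only member without a region peak in a list.

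Of the p53 inhibitors, *Mdm2* (chromosome 10, 117688875 to 117710758, minus strand) encodes the ubiquitin ligase that degrades p53 and is itself a p53 target through a promoter in its first intron. The WT-labelled list had no peak at the start of the gene. Its only promoter peak, from 117713168 to 117713441, was centred 2547 bp upstream, with 20 reads (12.2 to 30.9) over 7.12 at percentile 64.6. The KO-labelled list had a pair of peaks at the start that overlapped nothing in the WT-labelled list. One, from 117710585 to 117711000, covered the first TSS with 26 reads (17.0 to 38.1) over 9.40 at percentile 81.7. The other, from 117710035 to 117710356, was the stronger, with 30 reads (20.2 to 42.8) over 9.70, a −log10 q of 3.95 and a percentile of 92.9. It lay in intron 1 of the protein-coding transcripts (117710029 to 117710551), at start sites of short noncoding *Mdm2* transcripts. Peaks within the body of *Mdm2*, 1 in each list, did not overlap either.

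*Mdm4* (chromosome 1, 132959484 to 133030561, minus strand) encodes the relative of MDM2 that masks the activation domain of p53. It was the member with the highest-ranked promoter peak in the WT-labelled list. By −log10 p over the full lists it was the only one whose strongest promoter peak ranked lower in the KO-labelled list, at percentiles 98.5 and 96.6. With equally many peaks from both lists *Atr* and *H2afx* did so too, as did *Atr* by fold enrichment. At *Mdm4* the pileup was 29 reads (19.4 to 41.6) over 7.34 and 32 reads (21.9 to 45.2) over 8.90. The scaled ratio was 0.910 (0.533 to 1.56). These peaks lay at the cluster of start sites about 5 kb inside the outermost TSS and covered 7 TSSs in each list. *Mdm4* also had the most region peaks of any member in the WT-labelled list, 6 against 3 in the KO-labelled list, and only the promoter peak was shared.

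**Figure D2:**
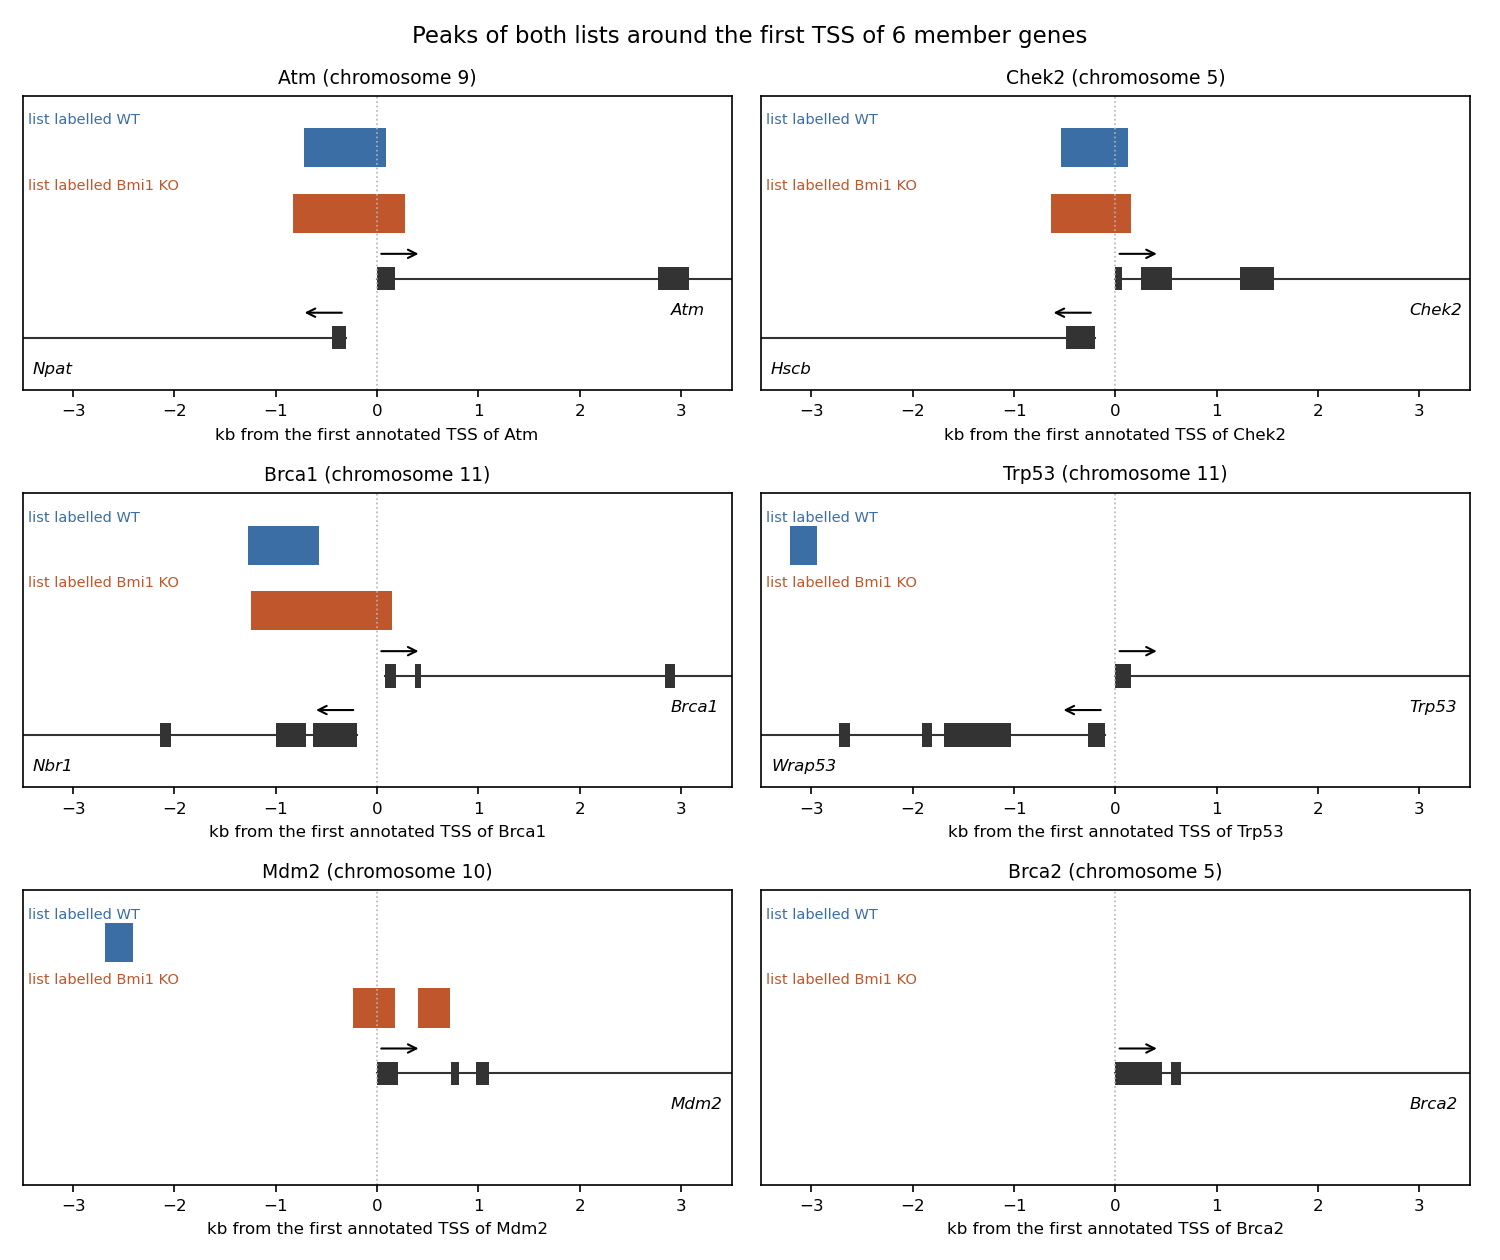
Peaks of the WT-labelled list (blue) and the KO-labelled list (orange) around the first TSS of 6 member genes, drawn to scale with the gene running to the right (x axis, kb from the first TSS; dark boxes are exons of protein-coding transcripts and arrows mark transcription starts). The *Atm* and *Chek2* peaks cover the TSS in both lists, the *Brca1* and *Mdm2* TSS is covered only by peaks of the KO-labelled list, and *Trp53* and *Brca2* have no peak over it.

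With a stricter limit, the strongest promoter peak reached a −log10 q of 5 in the WT-labelled list at *Mdm4* alone, 1 of 10 members against 4.17% of all protein-coding genes. It did so at 5 of 10 in the KO-labelled list, against 17.6% of all genes. These were *Mdm4*, *Atm*, *Chek2*, *Brca1* and *H2afx*. The share of genes past this limit was thus higher in the KO-labelled list among all genes as well.

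Over the whole regions of the 10 genes, gene body plus 10 kb upstream, 561.3 kb in all, peak density was close between the lists. There were 22 peaks in the WT-labelled list, or 0.392 per 10 kb (exact Poisson interval 0.246 to 0.593), and 23 in the KO-labelled list, or 0.410 per 10 kb (0.260 to 0.615). Over all protein-coding genes the densities were 0.454 and 0.570 per 10 kb. The KO-labelled list thus had more peaks than the WT-labelled list over all gene regions, while the counts at the members differed by 1 peak. The members' interval in each list included the density of all genes.

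Of the members' region peaks, 9 of 22 in the WT-labelled list (40.9%, 20.7% to 63.6%) overlapped a peak of the other list, against 28.9% of all peaks in protein-coding gene regions. In the KO-labelled list 10 of 23 did (43.5%, 23.2% to 65.5%), against 21.9%. When overlaps had to reach 50% of both peaks, the shares were 22.7% and 21.7%, against 15.0% and 11.9% of all such peaks. By that rule 5 of the 10 members had overlapping promoter peaks. The share of all genes was not taken, so this count describes the members alone. At the members' own promoters 8 of 15 WT-labelled and 9 of 14 KO-labelled peaks overlapped, against 50.7% and 38.1% over all protein-coding genes. Outside them it was 1 of 7 and 1 of 9 peaks, those at *Dpagt1*, against 18.0% and 14.1%. Overlap was thus more frequent at promoters over all genes as well. Overlapping peaks were wide, with a median of 636 bp (WT-labelled) and 714 bp (KO-labelled), and the others were 262 bp and 273 bp. Overlapping peaks also ranked higher, at median percentiles of 84.9 and 96.1 against 56.8 and 44.0.

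The base sequence of the promoters was taken from RefSeq (GRCm38.p6), which had 300-base promoters for 9 of the 10 members and none for *H2afx*. Over the 9 genes, with 1 promoter each, the median GC content was 56.7% and the median number of CpG dinucleotides was 22, against 52.7% and 7 over all 32851 promoters. *Mdm2* had the most CpG dinucleotides, 35, more than 93.0% of all promoters. *Trp53* had 10 and the downstream start site of *Mdm4* had 9, more than 56.5% and 54.2% of all promoters. *Brca2*, without a peak at its first TSS, had 25, which is more than *Brca1* with 19, so the number of CpG dinucleotides did not separate members with and without a peak there.

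At *Atm*, *Chek2*, *Brca1* and *Trp53* a protein-coding neighbour starts 104 to 307 bp away on the opposite strand. Sequence between such starts, leaving out bases that GENCODE or RefSeq place in an exon of either gene and, at *Atm*, bases farther than 250 from its start, is shown because a single peak spans both starts in some of these pairs and none is listed at *Trp53*. The *Brca2* sequence is shown as a further start without a peak. Searches on both strands covered the CCAAT box (CCAAT), E2F sites (TTTGGCGC, TTTCGCGC and TTTCCCGC), ETS (CCGGAAG), the NRF1 core (GCGCATGC), the CRE (TGACGTCA) and the p53 consensus decamer, of which p53 binds a pair, and matches are in capitals. None of these motifs contains another. Searches for the GC box (GGGCGG), the TATA box (TATAAA) and the CHR (TTTGAA), not in capitals, found 1 GC box at *Atm* (32.7% of promoters in the same length), 1 TATA box at *Brca2* (12.0%) and no CHR. The sequences hold at most 250 bases, run from 5′ to 3′ on the strand of the named gene and end just before its first TSS, or a few bases earlier for *Brca2*. They were read from GRCm38.p6 at chr9:53536741-53536990 (*Atm*, minus strand), chr5:110839778-110839978 (*Chek2*, plus strand), chr11:101551956-101552106 (*Brca1*, minus strand), chr11:69580256-69580358 (*Trp53*, plus strand) and chr5:150522380-150522620 (*Brca2*, plus strand).
Atm: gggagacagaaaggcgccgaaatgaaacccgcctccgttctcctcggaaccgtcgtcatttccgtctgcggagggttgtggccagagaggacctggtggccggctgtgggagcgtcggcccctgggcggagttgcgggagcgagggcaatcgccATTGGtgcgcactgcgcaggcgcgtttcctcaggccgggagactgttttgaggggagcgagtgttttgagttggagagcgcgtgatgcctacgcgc
Chek2: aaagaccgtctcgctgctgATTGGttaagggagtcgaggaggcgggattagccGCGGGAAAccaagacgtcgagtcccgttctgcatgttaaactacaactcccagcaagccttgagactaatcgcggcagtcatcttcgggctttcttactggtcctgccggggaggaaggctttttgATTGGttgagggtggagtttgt
Brca1: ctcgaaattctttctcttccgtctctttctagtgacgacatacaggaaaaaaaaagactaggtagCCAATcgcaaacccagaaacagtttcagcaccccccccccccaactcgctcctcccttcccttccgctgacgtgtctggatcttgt
Trp53: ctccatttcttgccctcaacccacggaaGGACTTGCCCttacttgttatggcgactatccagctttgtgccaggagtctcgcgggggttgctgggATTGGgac
Brca2: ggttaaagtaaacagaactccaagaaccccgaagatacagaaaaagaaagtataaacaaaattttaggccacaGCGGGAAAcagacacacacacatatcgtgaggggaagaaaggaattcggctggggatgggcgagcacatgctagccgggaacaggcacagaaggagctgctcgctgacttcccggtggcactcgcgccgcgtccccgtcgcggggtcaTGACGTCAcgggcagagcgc

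A CCAAT box was present in all 4 of the sequences shown from between paired starts. The *Chek2* sequence held 2. Of all promoters, the stretch of the same length before the TSS held one in 33.8% for the length used at *Atm*, 29.5% for *Chek2*, 24.6% for *Brca1* and 19.2% for *Trp53*. *Chek2* and *Brca2* each had the E2F letters TTTCCCGC, read as its reverse complement, which 0.776% and 0.886% of promoters held in the same lengths. *Brca2* had a CRE (1.54% of promoters), and *Trp53* had 1 match to the p53 consensus decamer (2.64%). A match describes letters only. *Trp53*, with a CCAAT box and no peak, shows that the box did not separate listed from unlisted promoters in this set.

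The intronic *Mdm2* peak of the KO-labelled list is shown because the known p53-responsive promoter of *Mdm2* lies in that intron. The p53 consensus decamer had no exact match in the 300 bases at chr10:117710057-117710356 (GRCm38.p6, minus strand, 5′ to 3′). With 1 mismatch allowed outside the central C and G there were 2 matches, in capitals.
Mdm2: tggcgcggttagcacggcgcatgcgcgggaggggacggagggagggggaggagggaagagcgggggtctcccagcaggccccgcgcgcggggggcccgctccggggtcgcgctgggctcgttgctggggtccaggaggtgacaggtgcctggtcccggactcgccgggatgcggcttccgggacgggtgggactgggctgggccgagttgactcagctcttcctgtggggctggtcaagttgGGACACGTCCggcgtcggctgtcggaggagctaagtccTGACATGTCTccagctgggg

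Of 300-base windows at the 4739 peak centres of the KO-labelled list on chromosome 10, 9.56% held an exact match and 20.8% held 2 or more with 1 mismatch. Such matches, counted at any spacing, were thus common in these windows. Whether p53 binds the 2 matches at *Mdm2* as a pair was not tested. The window had a GC content of 72.0%.

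Beyond the 10 genes, 68 further genes of the same pathways were examined in 6 lists. A promoter peak was found for 55 of them in the WT-labelled list (80.9%, against 59.1% of all genes) and for 63 in the KO-labelled list (92.6%, against 68.2%). Overlapping ones were found for 48 (70.6%, against 40.4%). In 8 cases only the KO-labelled list had one (11.8%, against 15.2%). Of the 55 genes with a peak in both lists, 41 had the higher rank in the KO-labelled list (74.5%, against 67.5%). The median scaled ratio was 1.06 over 34 genes, 0 of them past 1.5 in either direction (against 3.73% above and 1.17% below over all genes), and each interval included 1, as almost all did over all genes. The medians of members and pathway genes thus lay close to that of all genes, 1.03.

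In the ATM branch *Rad50*, a subunit of the break-sensing complex, had no promoter peak in either list, and the scaled ratio ran from 0.844 at *Nbn* to 1.12 at *Trp53bp1*. In the ATR branch *Rad9a* and *Hus1*, which encode parts of the clamp that activates ATR, had none, and the ratio ran from 0.923 at *Rad17* to 1.14 at *Etaa1*. Of the 10 genes of homologous recombination, 9 had a promoter peak in the WT-labelled list (90.0%, against 59.1% of all genes). All 10 had one in the KO-labelled list (against 68.2%), and *Xrcc2* had it only there (10.0%, against 15.2%). The ratio of these genes was lowest at *Rad54l*, at 0.992, and it was 1.29 at *Xrcc3*. Among the 7 cell cycle genes listed as checkpoint effectors, *Plk1* had a promoter peak only in the KO-labelled list (14.3%, against 15.2%). The ratio of these genes ran from 0.925 at *Cdc25c* to 1.21 at *Wee1*.

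Among other regulators and relatives of p53, *Trp63* had no promoter peak in either list. *Cdkn2a*, whose product Arf inhibits MDM2 and which Bmi1 represses in other tissues, had one only in the KO-labelled list (11.1% of these genes, against 15.2% of all). That peak had 21 reads over 8.04 at percentile 57.8, below the median of 87.3 over all genes. Outside the promoter, the WT-labelled list had 1 peak in the *Cdkn2a* region, and it overlapped a KO-labelled peak. The ratio ran from 0.878 at *Rchy1* to 1.24 at *Cop1*, both ubiquitin ligase genes. Of 24 p53 target genes 18 had a promoter peak in the WT-labelled list (against 59.1% of all genes) and 23 in the KO-labelled list (against 68.2%). *Pmaip1*, *Sesn2*, *Zmat3*, *Perp* and *Fas* had one only in the latter (20.8%, against 15.2%) and *Eda2r* in neither. Of these 5, the peak of *Sesn2* had 37 reads over 12.0 at percentile 95.9 and that of *Pmaip1*, the cell death gene Noxa, had 28 reads over 8.04 at percentile 94.7. Those of *Perp* and *Fas*, both at percentile 69.3, and *Zmat3*, at 37.5, ranked below the median of 87.3 over all genes. The target genes' ratio ran from 0.687 (0.404 to 1.17) at the excision repair gene *Xpc* to 1.40 (0.818 to 2.45) at the ribonucleotide reductase gene *Rrm2b*.

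The 7 genes of CDK inhibitors, 2 of which (*Cdkn1a* and *Cdkn2a*) are in the pathway lists as well, had a promoter peak in 6 cases in the WT-labelled list (against 59.1% of all genes) and in 7 in the KO-labelled list (against 68.2%). Their median scaled ratio was 1.20 over 4 genes, against 1.07 over 7 checkpoint and p53 genes and 1.03 over all genes, and the difference was not tested. *Cdkn1a*, the p53 target that encodes p21, had overlapping promoter peaks, but its strongest ones, at percentiles 34.9 and 87.2, lay at different places and are not 1 site compared between the lists.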

How the data were processed

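After trimming and alignment with BWA-MEM, MACS2 was run by the authors on each library separately, and the submitters' notes name the build mm10. The version and options of MACS2 in the ATAC-seq step are not given in the sources used here. The deposited fold enrichment compares pileup with local background after adding 1 to both, as a ratio, and the deposited −log10 p and −log10 q are those of a Poisson model. The deposited score, 10 times a −log10 value, was not used, and the other deposited columns give positions.

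Pileup and background were solved from fold enrichment and −log10 p, which was tested on simulated data. Peaks were assigned with GENCODE vM21, and their centres set promoters and regions. Python 3.11.15, numpy 2.4.6, pandas 2.3.3, scipy 1.17.1 and matplotlib 3.10.9 were used. Members, lists and markers were chosen with earlier results of these data known. Named genes were all members, their neighbours within 1 kb (among them the noncoding Gm24004, Gm42529, Gm23641, Gm48853, Gm44335 and Gm29257), and in each pathway list the genes with a promoter peak in 1 list or neither and those with the highest and lowest ratio. For 1 gene that this rule names, values are not reported here. Genes outside this rule (*Dpagt1*, *Cdkn1a* and the single marker genes of cell types) were named after their values were seen. The p53 decamer with a mismatch was searched after the exact one gave no match. Peak lists hold no read totals, so depth is known only as the background.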

Additional observations from a re-analysis of the deposited data

How the results depend on the processing

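Of 129 values under 11 alternatives, 4 reversed and 12 moved. Moved means by more than 1.5 times for a count, out of its interval for a share or the median ratio, and by more than 5 points for the percentile difference or 10% for the ratio of a gene. Small percentile differences, such as those of *Chek2* and *H2afx*, could therefore change several-fold without being counted as moved. With a −log10 q of at least 5, members with a promoter peak fell to 1 (WT-labelled) and 5 (KO-labelled), and so did the region peaks, of which 100% and 20% overlapped. Then 1 member had overlapping promoter peaks. When overlaps had to reach 50% of both peaks, 22.7% of the WT-labelled and 21.7% of the KO-labelled region peaks overlapped, and 5 members had overlapping promoter peaks. Reversals were confined to *Atr* and *H2afx*. With equally many peaks from both lists, the percentile difference was −0.381 at *H2afx* and −1.73 at *Atr*, and at *Brca2* it fell from 12.5 to 3.46. By fold enrichment it was −3.11 at *Atr* and 66.7 in place of 72.4 at *Chek1*. With the commonest background of each library the scaled ratio was 1.05 at *Atr* and 1.69 at *Brca1*. The cause was not tested. With curated RefSeq transcripts 8 members had a promoter peak in each list. Within 1 kb of a TSS *Mdm2* had none in the WT-labelled list. Its percentile difference was then 92.9 in place of 28.3, above the 72.4 at *Chek1*. Counting any overlap in place of the centre gave *Trp53* a promoter peak in the WT-labelled list. Shares of all genes under the alternatives were taken only where given above, so the other counts here describe the members alone. With 1 library per genotype no replicate could be left out, and pileups of 16 to 43 reads limit what can be told apart. No paired analysis was possible because each genotype had 1 library.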
